A study of Mus musculus with 13 samples.

Results

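Mnx1, Isl1, Isl2, Lhx3 and Lhx4 are 5 transcription factor genes that define motoneurons during development, and their transcripts were followed here in motoneurons of adult mice with mutant SOD1. They were found by symbol among the 48709 gene rows of each count table, and all 5 passed the filter on low counts that left 17403 genes for testing. The mice were 65 days old and all carried the SOD1-G93A transgene, a human mutant superoxide dismutase gene used to model amyotrophic lateral sclerosis, so no healthy animal enters any comparison. In the AAV-miR SOD1 group (n = 4 mice) an adeno-associated virus injected into the brain ventricles on postnatal day 2 made astrocytes express an artificial microRNA against human SOD1. The control vector went to the mice of AAV-miR ctrl (n = 5), and Non-injected (n = 4) held littermates without injection. Each library came from 1 mouse, as a pool of 500 motoneurons cut by laser from cresyl violet-stained lumbar sections, which were taken with the cord frozen inside its vertebrae.

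Mnx1, also called HB9, encodes a homeodomain protein that keeps newly born motoneurons from taking on interneuron features. The other 4 genes encode LIM-homeodomain proteins, which carry a pair of LIM zinc fingers beside the DNA-binding homeodomain. In the embryonic cord, Isl1 and Lhx3 proteins join through the adaptor Ldb1 into a complex that switches on Mnx1, Isl2 and the genes of acetylcholine synthesis and transport, whereas Lhx3 with Ldb1 alone directs an interneuron fate. Lhx4 is the close relative of Lhx3 and acts with it as motoneurons form and send out their axons. Isl1 and Isl2 are also made by sensory neurons of the dorsal root ganglia, which lie beside the cord within the vertebral column.

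On GRCm38 with GENCODE M21 genes, Mnx1 (ENSMUSG00000001566) lies at chr5:29473034-29478470, with 2250 bases of exon. Isl1 (ENSMUSG00000042258) lies at chr13:116298281-116309689, with 3959 bases of exon. Isl2 (ENSMUSG00000032318) lies at chr9:55538672-55546180, with 2193 bases of exon. Lhx3 (ENSMUSG00000026934) lies at chr2:26200212-26208289 and Lhx4 (ENSMUSG00000026468) at chr1:155698031-155751684, with 3045 and 5740 bases of exon. Isl2 is on the plus strand and the other 4 genes are on the minus strand. The antisense gene Gm17226 crosses Isl2 without sharing exon bases and had 6 to 54 counts per library. The antisense gene Gm27196 shares 188 exon bases with Lhx3 and had 0 counts in every library. Whether counting used strand is not given in the sources used here, so reads of Lhx3 and Gm27196 in that stretch could not be told apart.

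The promoters of Mnx1, Isl1 and Isl2 are shown because these 3 genes had the highest levels of the 5 and varied together across the libraries. Lhx4, at a lower level, also varied with them, with Pearson r of 0.74 to 0.82 over the 13 libraries. Each line gives the first 240 bases of the RefSeq promoter record (GRCm38.p6), which runs from 250 bases before to 50 bases after the transcription start. Capitals mark TAAT, the core letters that many homeodomain proteins bind, and CCAAT, the box bound by the general factor NF-Y, each searched on both strands, where they read ATTA and ATTGG.
Mnx1 (chr5:29478481-29478720, - strand): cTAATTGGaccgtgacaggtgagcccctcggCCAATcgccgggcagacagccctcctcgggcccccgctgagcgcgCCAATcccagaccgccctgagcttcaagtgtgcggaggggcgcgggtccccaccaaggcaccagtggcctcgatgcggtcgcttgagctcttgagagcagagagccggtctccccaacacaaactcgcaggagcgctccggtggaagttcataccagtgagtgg
Isl1 (chr13:116309699-116309938, - strand): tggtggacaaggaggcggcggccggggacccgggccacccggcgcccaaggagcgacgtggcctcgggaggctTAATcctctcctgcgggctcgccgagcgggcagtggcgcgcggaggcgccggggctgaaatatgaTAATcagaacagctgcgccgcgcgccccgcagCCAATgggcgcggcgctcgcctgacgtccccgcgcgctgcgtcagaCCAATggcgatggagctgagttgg
Isl2 (chr9:55540899-55541138, + strand): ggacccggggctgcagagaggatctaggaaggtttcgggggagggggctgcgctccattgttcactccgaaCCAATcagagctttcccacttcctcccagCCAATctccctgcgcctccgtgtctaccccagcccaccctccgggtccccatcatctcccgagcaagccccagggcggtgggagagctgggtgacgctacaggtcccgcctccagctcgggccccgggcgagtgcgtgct
The Mnx1 window held 1 TAAT and 3 CCAAT matches, with the TAAT overlapping a CCAAT on the other strand. The Isl1 window held 2 TAAT and 2 CCAAT matches, and the Isl2 window held 0 TAAT and 2 CCAAT matches. Of 32851 RefSeq promoter windows of this length, 54.2% held at least 1 TAAT, so its presence separates these genes little from others. At least 1 CCAAT was found in 33% of the windows and 2 or more in 9.64%. Of the 2 Lhx3 starts, 1 window held 1 TAAT and the other 0, and the Lhx4 window held 0. Neither Lhx3 window nor the Lhx4 window held CCAAT. The RefSeq start used for Isl2 lies inside the longer GENCODE span of the gene. A match here describes the letters of the window and is not a binding site.

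The libraries held 13897189 to 37414222 counts in genes. The 4 libraries numbered 5 or 6, all of them controls, held at least 29682646 counts, against at most 23101349 in the 9 libraries numbered 1 to 4. In 2 tables the column header went against the labels: that of the library labelled AAV-miR ctrl replicate 3 named the non-injected series, and that of the library labelled Non-injected replicate 3 named the control vector. The labels were followed. The tables list mouse genes, so the human SOD1 target was not analysed here. Levels are given as CPM, which are counts scaled to a common library total after TMM adjustment of that total. The summed level of 7 motoneuron markers (Chat, Slc18a3, Slc5a7, Prph, Nefh, Nefm, Calca) was 4014 to 6612 CPM in the AAV-miR SOD1 libraries, 5601 to 12773 in AAV-miR ctrl and 5691 to 13955 in Non-injected, and no marker was at 0. That of 7 erythroid markers, globins among them, was 21052 to 47555, 3573 to 28268 and 5587 to 20327 CPM, and that of 7 microglia markers 716 to 995, 414 to 1187 and 250 to 676 CPM. Sums of 7 astrocyte markers were 459 to 575, 568 to 1011 and 540 to 782 CPM, and those of 6 oligodendrocyte markers 1193 to 2737, 1137 to 4533 and 1833 to 2815 CPM. All 6 oligodendrocyte markers had negative log2 fold changes in AAV-miR SOD1 against both control groups (median -0.53), with 0 of 6 at an unadjusted p under 0.05 in edgeR. Sensory neuron markers stood out in the libraries labelled AAV-miR ctrl replicates 3 and 4, with a sum over 5 genes (Pou4f1, Avil, Scn10a, Trpv1, Prdm12) of 59.3 and 26.1 CPM, against 0.369 to 4.03 CPM in the other 11 libraries. In bulk captures, fewer motoneurons in a pool and less RNA per motoneuron cannot be told apart.

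All 5 identity factors were detected in all 13 libraries, in a fixed rank over most of them. As RPKM, the CPM divided by the kilobases of exon, the mean over the 13 libraries was 4.98 ± 2.72 (SD) for Mnx1, 4.73 ± 3.01 for Isl2, 2.18 ± 1.42 for Isl1, 0.813 ± 0.396 for Lhx4 and 0.262 ± 0.219 for Lhx3. Isl2 was above Isl1 in 13 of 13 libraries, Isl1 above Lhx4 in 12 of 13 and Lhx4 above Lhx3 in 13 of 13. Mnx1 was above Isl2 in 9 of 13, so the upper pair did not separate beyond the spread between libraries. Among the 17363 tested genes with a length, 61.4% had a lower mean RPKM than Mnx1, 60.3% than Isl2, 43.4% than Isl1, 24.3% than Lhx4 and 8.68% than Lhx3. The developmental regulators of these cells were thus transcripts of middle to low level at this age.

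**Figure D1:**
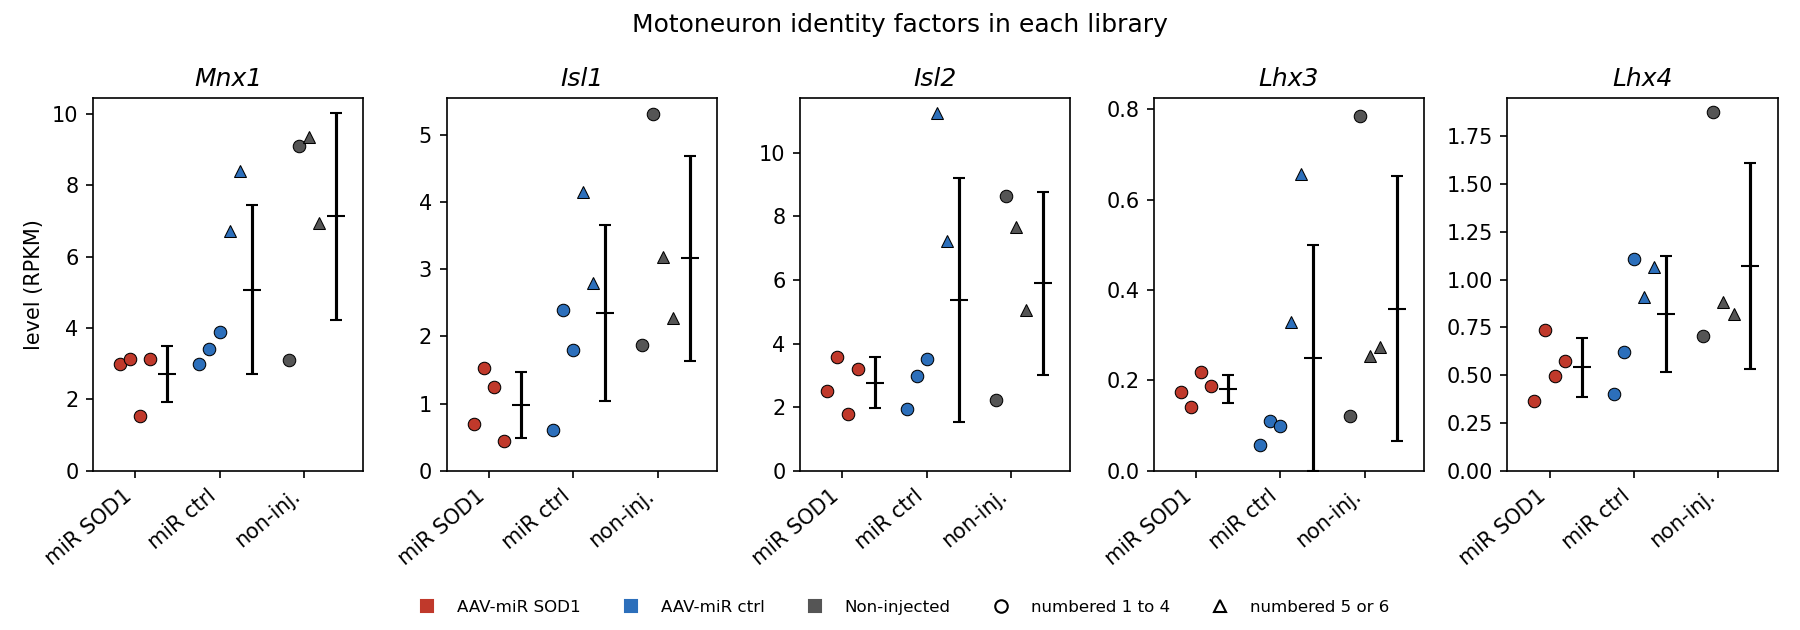
RPKM of each factor (vertical axis, a scale of its own per gene, starting at 0) in the 13 libraries by group, with the group mean and SD as bars. Circles are libraries numbered 1 to 4 and triangles those numbered 5 or 6; the AAV-miR SOD1 points lie with the lower controls for every factor but Lhx3, where they sit between the 4 lower and the 5 upper controls.

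Mnx1 was measured at 6.77, 7.06, 3.46 and 7.08 CPM in AAV-miR SOD1 replicates 1 to 4. In AAV-miR ctrl replicates 1, 3, 4, 5 and 6 it was 6.72, 7.66, 8.77, 15.1 and 18.9 CPM. In Non-injected replicates 2, 3, 5 and 6 it was 6.97, 20.5, 21.1 and 15.7 CPM. The controls fell into a low set near the AAV-miR SOD1 libraries and a high set of 5, namely the 4 libraries numbered 5 or 6 and Non-injected replicate 3, and both control groups overlapped the AAV-miR SOD1 group. The group means were 2.71 ± 0.782, 5.08 ± 2.36 and 7.13 ± 2.90 RPKM (SD, n = 4, 5 and 4).

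Isl1, a LIM factor that acts as motoneurons leave the cell cycle, was at 2.76, 6.05, 4.93 and 1.77 CPM in AAV-miR SOD1. The AAV-miR ctrl values were 2.39, 9.49, 7.12, 16.4 and 11.1 CPM, and the Non-injected values 7.43, 21.01, 12.6 and 9.03 CPM. Every AAV-miR SOD1 library was below every Non-injected library, as was the case for 5.81% of all genes, whereas AAV-miR ctrl replicate 1 lay within the AAV-miR SOD1 range. Group means were 0.979 ± 0.495, 2.35 ± 1.30 and 3.16 ± 1.53 RPKM (SD, n = 4, 5 and 4). The sensory marker sum was 59.3 CPM in AAV-miR ctrl replicate 3 and 26.1 CPM in replicate 4, where Isl1 was 9.49 and 7.12 CPM, and 2.96 CPM in Non-injected replicate 3, where Isl1 was highest. The part of sensory neuron RNA in the Isl1 and Isl2 values was not tested.

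Isl2, which the Isl1-Lhx3 complex switches on as motoneurons mature, was at 5.48, 7.87, 3.89 and 7.02 CPM in AAV-miR SOD1. The AAV-miR ctrl values were 4.24, 6.51, 7.72, 24.6 and 15.8 CPM, and the Non-injected values 4.89, 19.0, 16.8 and 11.1 CPM. The same 5 control libraries as for Mnx1 were above all others, and the remaining 4 controls lay among the AAV-miR SOD1 values. Group means were 2.77 ± 0.802, 5.38 ± 3.83 and 5.90 ± 2.88 RPKM (SD, n = 4, 5 and 4). The ratio of Isl2 to Isl1 in RPKM varied from 1.19 in Non-injected replicate 2 to 7.16 in AAV-miR SOD1 replicate 4. It was 1.42 to 7.16 in AAV-miR SOD1, 1.24 to 3.21 in AAV-miR ctrl and 1.19 to 2.41 in Non-injected, so the groups overlapped.

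Lhx3, the partner of Isl1 in the motoneuron complex, had only 12, 9, 14 and 9 counts in AAV-miR SOD1. It had 4, 7, 4, 38 and 59 counts in AAV-miR ctrl and 8, 42, 31 and 28 in Non-injected. A count of 4 carries an exact Poisson 95% interval of 1.09 to 10.2 and a count of 59 one of 44.9 to 76.1, which cover counting error only. As CPM these were 0.432 to 0.663, 0.177 to 1.997 and 0.369 to 2.39, with the 5 high control libraries again above the AAV-miR SOD1 range and the other 4 controls below it. Group means were 0.181 ± 0.0314, 0.250 ± 0.250 and 0.359 ± 0.292 RPKM (SD, n = 4, 5 and 4).

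Lhx4 was at 2.09, 4.22, 2.84 and 3.29 CPM in AAV-miR SOD1, at 2.30, 3.57, 6.37, 5.23 and 6.13 CPM in AAV-miR ctrl and at 4.06, 10.8, 5.07 and 4.71 CPM in Non-injected. Here AAV-miR ctrl replicate 4 joined the higher controls, and Non-injected replicate 3 was the highest library, as it was for Isl1 and Lhx3. Group means were 0.542 ± 0.155, 0.822 ± 0.304 and 1.07 ± 0.541 RPKM (SD, n = 4, 5 and 4), with overlap between AAV-miR SOD1 and each control group.

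Against AAV-miR ctrl, which asks what the SOD1-directed microRNA adds to the vector, all 5 factors had lower fitted levels in AAV-miR SOD1 with all libraries, but none passed the test. For Lhx3 the direction was not stable: its means of log2 CPM differed by 0.009, and 5 of 27 alternative fits gave a value above 0, among them 1.02 in libraries numbered 1 to 4. The log2 fold changes were -0.91 ± 0.39 (SE) for Mnx1, -1.26 ± 0.51 for Isl1, -0.97 ± 0.51 for Isl2, -0.49 ± 0.73 for Lhx3 and -0.60 ± 0.39 for Lhx4. The adjusted p from edgeR's quasi-likelihood test with Benjamini-Hochberg adjustment over 17403 genes was 0.317, 0.301, 0.391, 0.795 and 0.496, in that order. The adjusted threshold of 0.05 was met by 0 of 5 factors and by 0 of all genes (0%). At an unadjusted p under 0.05, 2 of 5 were lower (Mnx1 and Isl1), against 8.54% of all genes called lower by the same rule. The ranges of the groups overlapped for all 5, where 2.46% of genes lay wholly lower. The median of the 5 log2 fold changes was -0.91, and that of all genes -0.05.

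Against Non-injected, which differs in both the injection and the microRNA, the same AAV-miR SOD1 libraries gave -1.40 ± 0.41 (SE) for Mnx1, -1.69 ± 0.54 for Isl1, -1.09 ± 0.53 for Isl2, -0.97 ± 0.77 for Lhx3 and -0.98 ± 0.41 for Lhx4 on the log2 scale. None passed the test: edgeR's Benjamini-Hochberg adjusted p was 0.140, 0.142, 0.254, 0.498 and 0.201, and 0 of all genes (0%) passed. At an unadjusted p under 0.05, 3 of 5 were lower (Mnx1, Isl1 and Lhx4), against 11.5% of all genes. Isl1 was the only 1 of the 5 whose groups did not overlap, a separation found in the lower direction for 5.81% of all genes. The median of the 5 was -1.09, and that of all genes -0.09.

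AAV-miR ctrl against Non-injected asks what the control vector did without the SOD1-directed microRNA. The log2 fold changes were -0.49 ± 0.38 (SE) for Mnx1, -0.42 ± 0.49 for Isl1, -0.13 ± 0.49 for Isl2, -0.48 ± 0.71 for Lhx3 and -0.38 ± 0.39 for Lhx4. All 5 had an edgeR adjusted p (Benjamini-Hochberg) of 1, and 0 of 5 were lower at an unadjusted p under 0.05, against 2.24% of all genes. The adjusted threshold was met by 0% of genes, and groups without overlap in the lower direction made up 0.517% of genes and 0 of the 5 factors. All 5 signs turned when the 2 header-contradicted libraries were exchanged, to 0.12 for Mnx1, 0.27 for Isl1, 0.54 for Isl2, 1.00 for Lhx3 and 0.50 for Lhx4. Without Non-injected replicate 3, Isl2 was at 0.11, Lhx3 at 0.22 and Lhx4 at 0.031.

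Against both control groups together, AAV-miR SOD1 gave -1.16 ± 0.37 (SE) for Mnx1, -1.47 ± 0.48 for Isl1, -1.03 ± 0.47 for Isl2, -0.73 ± 0.67 for Lhx3 and -0.79 ± 0.36 for Lhx4 as log2 fold changes. Adjusted over all genes (edgeR, Benjamini-Hochberg), p was 0.109, 0.114, 0.212, 0.564 and 0.218, so 0 of 5 passed, as did 0% of all genes. At an unadjusted p under 0.05, 4 of 5 were lower, all but Lhx3, against 12.1% of genes. All 5 overlapped the controls, where 1.23% of genes lay wholly lower. Under DESeq2, run on the same libraries, Mnx1 (-1.12, adjusted p = 0.0295) and Isl1 (-1.44, adjusted p = 0.026) did pass, among 1521 of 17403 genes. Under limma-voom, a further tool that also called genes in this comparison, 0 of 5 factors passed. In counts simulated with the spread that edgeR fitted and with 200 of 17403 genes changed, 41 of 196 DESeq2 calls in this comparison were false. For edgeR it was 8 of 142. The share of changed genes in the real libraries is not known, so these false shares cannot be carried over to them. Over every alternative fit, the adjusted p spanned 0.0295 to 0.96 for Mnx1 and 0.026 to 0.975 for Isl1. These comparisons share libraries with the ones above and are not independent of them.

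**Figure D2:**
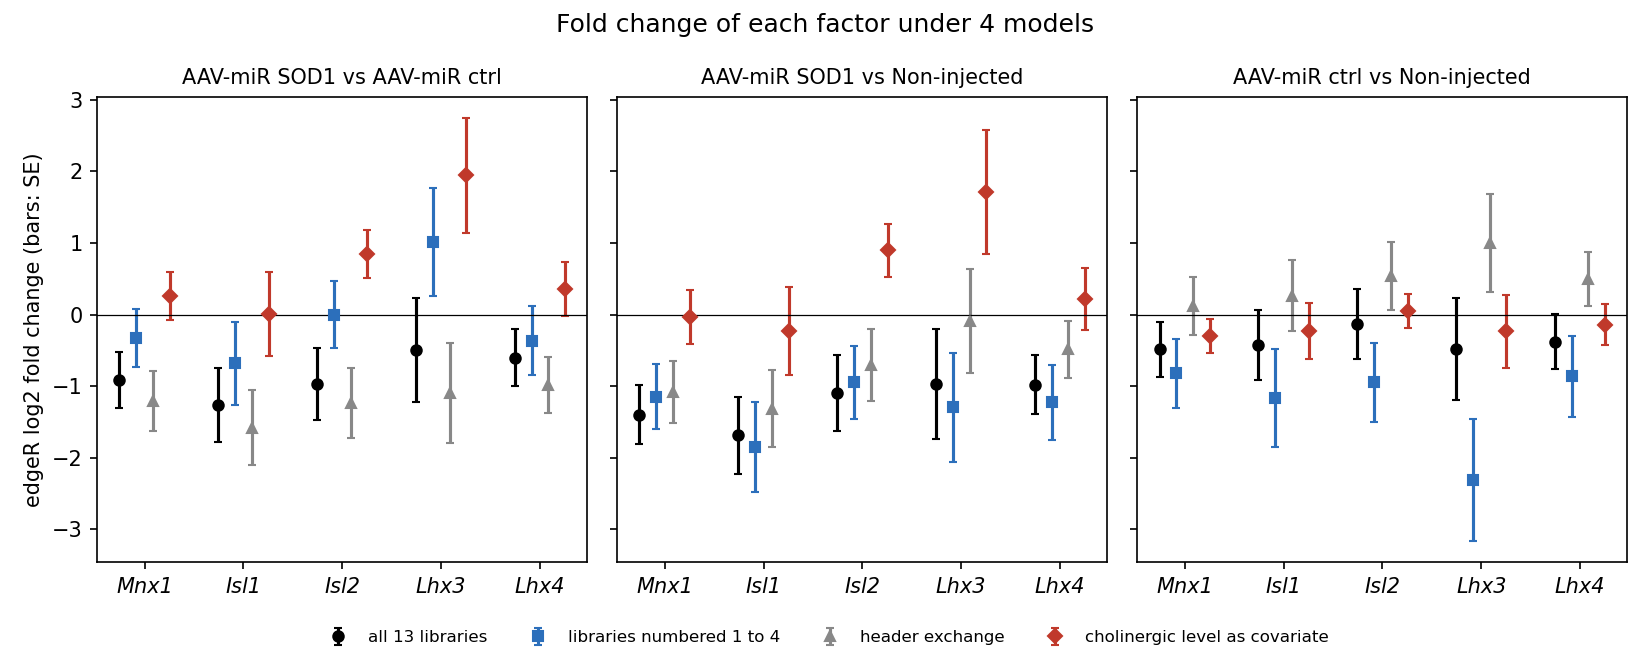
edgeR log2 fold change of each factor (vertical axis, bars are SE) in 3 comparisons, with all 13 libraries, with the 9 libraries numbered 1 to 4, with the 2 header-contradicted libraries exchanged, and with the cholinergic level of each library as a covariate. The values with all libraries are below 0 in every panel, and in both AAV-miR SOD1 panels those with the cholinergic covariate sit near 0 for Mnx1, Isl1 and Lhx4 and above 0 for Isl2 and Lhx3.

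Controls numbered 5 or 6 had a higher mean RPKM than controls numbered 1 to 4 for 4 of the 5 factors. The means were 7.86 ± 1.24 against 4.50 ± 2.60 RPKM for Mnx1, 3.10 ± 0.790 against 2.40 ± 1.76 for Isl1, 7.79 ± 2.56 against 3.86 ± 2.75 for Isl2 and 0.378 ± 0.188 against 0.235 ± 0.309 for Lhx3 (SD, n = 4 and 5). For Lhx4 they were 0.921 ± 0.105 against 0.943 ± 0.581 RPKM. Its mean log2 CPM, however, was higher in controls numbered 5 or 6, at 2.42 against 2.26. All 4 AAV-miR SOD1 libraries are numbered 1 to 4, so no value within libraries numbered 5 or 6 exists for that group. Among the 9 libraries numbered 1 to 4, AAV-miR SOD1 against both control groups gave -0.73 for Mnx1, -1.26 for Isl1, -0.47 for Isl2, -0.14 for Lhx3 and -0.80 for Lhx4 on the log2 scale, with edgeR adjusted p (Benjamini-Hochberg) from 0.339 to 0.931. Against AAV-miR ctrl the same subset gave -0.32 for Mnx1, -0.68 for Isl1, 0.00 for Isl2, 1.02 for Lhx3 and -0.36 for Lhx4. Against the combined controls, the values of Isl1 and Lhx4 were thus near those over all libraries, whereas those of Mnx1, Isl2 and Lhx3 were closer to 0.

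The 2 libraries whose headers contradict their labels bear on the size of each value. Without both of them, AAV-miR SOD1 against both control groups gave -1.07 for Mnx1, -1.22 for Isl1, -0.91 for Isl2, -0.40 for Lhx3 and -0.56 for Lhx4. With their labels exchanged instead, the difference from AAV-miR ctrl became -1.20 for Mnx1, -1.58 for Isl1, -1.24 for Isl2, -1.09 for Lhx3 and -0.98 for Lhx4, and that from Non-injected -1.08, -1.31, -0.70, -0.09 and -0.49. Thus the larger difference lay against Non-injected under the labels and against AAV-miR ctrl under the headers, for all 5 factors. Without AAV-miR ctrl replicates 3 and 4, the libraries with sensory neuron markers, Isl1 stood at -1.46 and Isl2 at -1.13 against both control groups.

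Of the cholinergic genes that the motoneuron complex switches on in the embryo, 4 of 4 tested against both control groups (Chat, Slc18a3, Slc5a7 and Ache) were lower at an unadjusted p under 0.05, as were 12.1% of all genes. After adjustment, 0 of 4 passed. All 7 motoneuron markers, Chat, Slc18a3 and Slc5a7 among them, were also lower at that unadjusted threshold, and 0 of 7 passed adjustment. The others were Prph (-1.10), Nefh (-0.75), Nefm (-0.77) and Calca (-1.25). Lower values were thus not particular to the cholinergic genes. Slc5a7, the high-affinity choline transporter, was at 152, 207, 165 and 169 CPM in AAV-miR SOD1, while AAV-miR ctrl spanned 210 to 427 CPM and Non-injected 257 to 589 CPM, so that 1 AAV-miR ctrl library at 210 CPM came close to the AAV-miR SOD1 maximum of 207 CPM. Its log2 fold change was -1.01 ± 0.25 (SE), and that of Chat, the acetylcholine-synthesising enzyme, -0.91 ± 0.24, both with an edgeR adjusted p of 0.096 (Benjamini-Hochberg).

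The mean log2 CPM of Chat, Slc18a3 and Slc5a7 was taken as the cholinergic level of a library. It was 6.72, 7.32, 6.56 and 7.06 in AAV-miR SOD1, 7.23, 7.50, 7.71, 8.38 and 8.34 in AAV-miR ctrl and 7.44, 8.67, 8.02 and 7.96 in Non-injected. Over the 13 libraries, which share depth and capture content across genes, the log2 CPM of Mnx1 followed this level with Pearson r = 0.92 and Spearman rho = 0.90. The same description gave r = 0.84 and rho = 0.92 for Isl1, 0.90 and 0.88 for Isl2, 0.65 and 0.59 for Lhx3, and 0.87 and 0.89 for Lhx4. Within the 9 libraries numbered 1 to 4, r was 0.93 for Mnx1, 0.78 for Isl1, 0.86 for Isl2, 0.49 for Lhx3 and 0.90 for Lhx4. Against the erythroid marker sum, r over the 13 libraries was -0.79 for Mnx1, -0.83 for Isl1, -0.82 for Isl2, -0.63 for Lhx3 and -0.74 for Lhx4, and against the microglia sum it ranged from -0.84 to -0.64. Against the oligodendrocyte sum, Lhx3 had r = -0.59 and rho = -0.71, and the other 4 factors had r from -0.32 to -0.01. The part of these other cell types in the lower values was not tested.

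**Figure D3:**
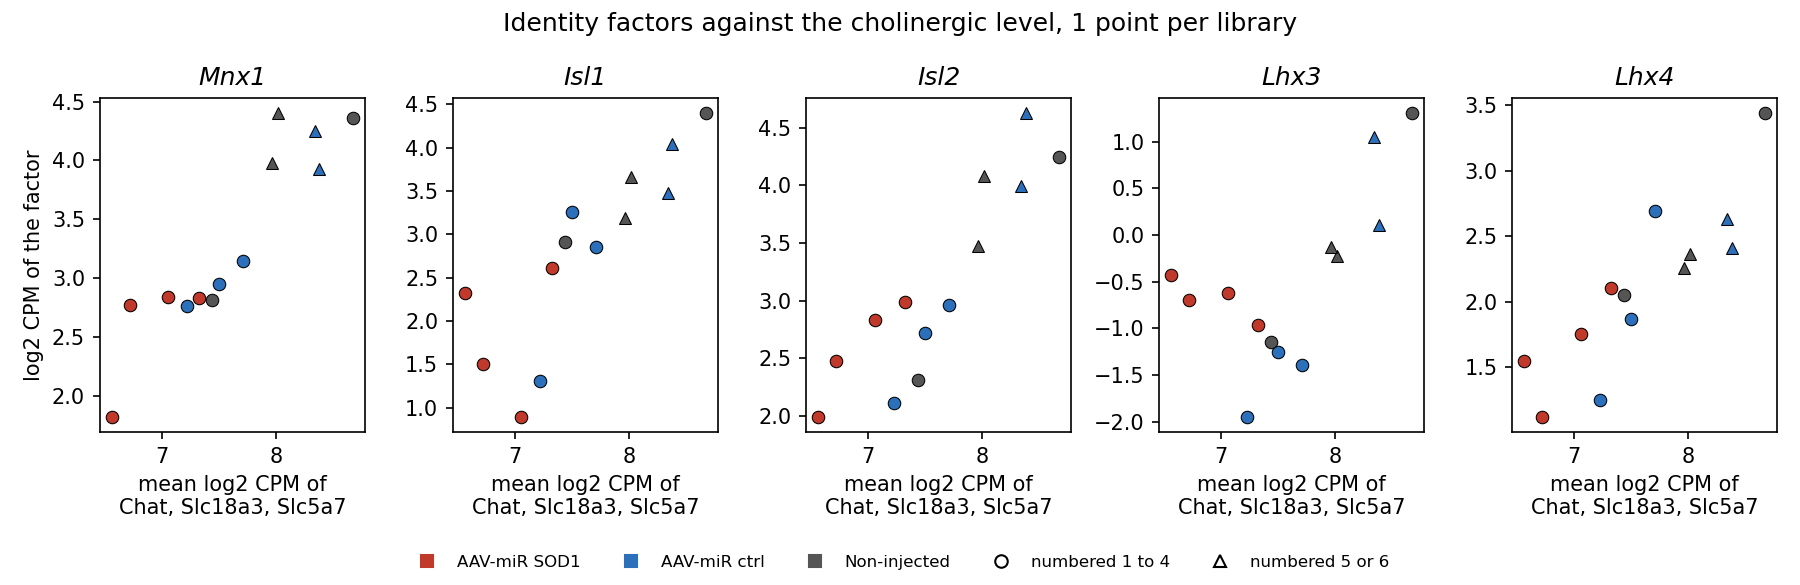
log2 CPM of each factor (vertical axis, its own scale per gene) against the mean log2 CPM of Chat, Slc18a3 and Slc5a7 (horizontal axis), 1 point per library. Points climb together for Mnx1, Isl1, Isl2 and Lhx4; for Lhx3 the libraries numbered 1 to 4 do not climb, apart from Non-injected replicate 3.

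Set against the cholinergic level, the difference between groups was nearer to 0 for Mnx1, Isl1, Isl2 and Lhx4 and farther from 0 for Lhx3, and its sign turned for Isl2, Lhx3 and Lhx4. The log2 ratio of Mnx1 to this level averaged -4.35 in AAV-miR SOD1 and -4.30 in both control groups, a difference of -0.05 where that of log2 CPM was -1.05. For Isl1 the difference went from -1.40 to -0.40, for Isl2 from -0.82 to 0.18, for Lhx4 from -0.70 to 0.30 and for Lhx3 from -0.27 to 0.73. The spread over the 13 libraries, group differences included, narrowed as well: the SD was 0.32 for the ratio of Mnx1 and 0.80 for its log2 CPM. It was 0.32 against 0.63 for Lhx4, 0.40 against 0.87 for Isl2, 0.63 against 1.06 for Isl1 and 0.71 against 0.93 for Lhx3. Within AAV-miR SOD1 it widened for Isl1 (0.83 against 0.79) and Lhx3 (0.54 against 0.22) and narrowed for the others. Within AAV-miR ctrl and within Non-injected it narrowed for every factor. With the cholinergic level as a covariate in the edgeR fit, AAV-miR SOD1 against both control groups gave 0.11 ± 0.34 (SE) for Mnx1, -0.11 ± 0.55 for Isl1, 0.87 ± 0.33 for Isl2, 1.83 ± 0.80 for Lhx3 and 0.28 ± 0.38 for Lhx4 on the log2 scale. None of these passed, with edgeR adjusted p (Benjamini-Hochberg) of 0.848 to 0.975. The cholinergic level averaged lower in AAV-miR SOD1 than in either control group, although no cholinergic gene passed adjustment, so the covariate is not independent of the groups. Chat, Slc18a3 and Slc5a7 are also among the genes that the motoneuron complex switches on in the embryo. A fall that they share with the factors would cancel in the ratio.

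The factors varied together, most of all Mnx1 with Isl2. Over the 13 libraries, Pearson r of log2 CPM was 0.91 between Mnx1 and Isl2, 0.82 between Isl1 and Lhx4 and 0.62 between Isl1 and Lhx3, the lowest of the 10 pairs. Within the 9 libraries numbered 1 to 4, the pair Mnx1 and Isl2 stayed at 0.91 and Isl1 and Lhx3 were at 0.53. Among all tested genes, the 3 most like Mnx1 were Ache (r = 0.97, rho = 0.91), the acetylcholine-degrading enzyme, Trim3 (0.97, 0.88) and Pacsin1 (0.97, 0.90). For Isl2 they were Ifitm10 (0.98, 0.98), Cdipt (0.98, 0.93) and Slc2a6 (0.97, 0.97). Isl1 was most like Ric3 (0.93, 0.95), a chaperone of nicotinic acetylcholine receptors, Cd59a (0.92, 0.90) and Ptn (0.92, 0.88), and Lhx4 most like Rab39b (0.95, 0.96), Aqp11 (0.95, 0.92) and Grik4 (0.94, 0.95). Lhx3, the factor with fewest counts, was most like Gm13523 (0.90, 0.86), Mettl2 (0.88, 0.88) and Tacr1 (0.86, 0.82). The top 3 lists of the 5 factors shared no gene.

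The proteins that bind LIM factors did not follow the identity factors as a group. Of 10 LIM complex partners tested against both control groups, 2 were lower (Ssbp2 and Ldb2) and 1 higher (Lmo2) at an unadjusted p under 0.05, where 12.1% and 10.2% of all genes were, with a median log2 fold change of 0.02. Lmo2, a LIM-only protein best known from blood cell formation, was at 159, 120, 39.1 and 37.2 CPM in AAV-miR SOD1 and at 23.6 to 56.7 CPM in the controls. AAV-miR SOD1 replicates 1 and 2 were above all controls and replicates 3 and 4 within their range. Its log2 fold change was 1.43 ± 0.36 (SE), with an edgeR adjusted p of 0.096 (Benjamini-Hochberg), beside 7 of 7 erythroid markers higher at an unadjusted p under 0.05. Ssbp2, a single-stranded DNA-binding protein that stabilises Ldb1, spanned 48.9 to 124 CPM in the controls and 41.4 to 57.5 CPM with AAV-miR SOD1 (-0.89 ± 0.25, edgeR adjusted p = 0.101). Ldb2, the relative of Ldb1, had -0.55 ± 0.25 (edgeR adjusted p = 0.216), and Ldb1 itself 0.15 ± 0.26 (edgeR adjusted p = 0.781).

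Factors that act before or after the motoneuron choice showed no common direction toward lower levels. Of the 7 progenitor factors, 5 were tested and 0 had an unadjusted p under 0.05 in edgeR against both control groups, by which rule 12.1% of all genes were lower and 10.2% higher, the smallest being those of Nkx6-2 (-0.23 ± 0.49 SE) and Irx3 (-0.19 ± 0.43). Of the 13 postmitotic and columnar factors, 11 were tested, and 0 were lower and 3 higher at an unadjusted p under 0.05, against 12.1% and 10.2% of all genes (median 0.19), namely Foxp1, Zeb2 and Ebf3. Foxp1, which marks limb-innervating motoneurons, had 0.49 ± 0.21 (edgeR adjusted p = 0.180) and the neuronal differentiation factor Ebf3 had 0.88 ± 0.38 (edgeR adjusted p = 0.188). Of the 13 interneuron fate factors, 6 were tested and 0 were lower or higher at an unadjusted p under 0.05 (12.1% and 10.2% of all genes) or after adjustment, among them Gata2 (0.52 ± 0.26), a factor of V2b interneurons, and En1 (0.40 ± 0.41), a factor of V1 interneurons. Interneuron marker sums were 14.3 to 53.5 CPM in AAV-miR SOD1, 22.3 to 50.2 in AAV-miR ctrl and 15.98 to 46.7 in Non-injected.

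**Figure D4:**
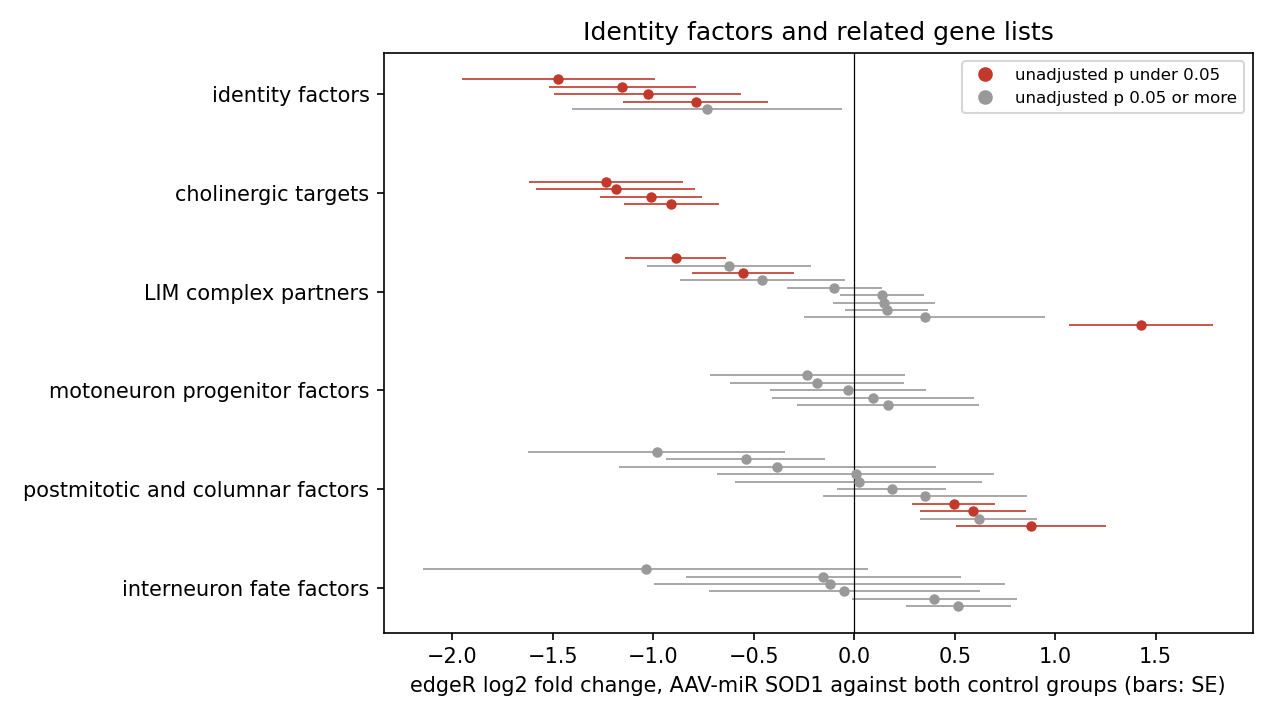
edgeR log2 fold change (horizontal axis, bars are SE) of AAV-miR SOD1 against both control groups for each tested gene of 6 lists, ordered by value within a list. Red points have an unadjusted p under 0.05, which 4 of 5 identity factors and 4 of 4 cholinergic targets reached in the lower direction; no point passed adjustment.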

How the data were processed

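The authors deposited raw read counts per Ensembl gene, 1 table per library, with 5 summary rows that were left out. The submitters' processing notes name cutadapt 1.8, STAR 2.5.2b, HTSeq 0.6.1 and GRCm38; annotation release and strand setting are not given in the sources used here. Reads aligned to several places came to 42.3% to 56.8% of each table's total, ambiguous ones to 1.67% to 3.00% and those in no feature to 1.71% to 3.16%. Symbols, exon lengths and coordinates came from GENCODE M21, which named 48349 of 48709 rows.

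Counts were filtered (filterByExpr, minimum count 10, minimum total 15), TMM-scaled and fitted in edgeR 4.0.16 (R 4.3.3) with 3 groups over all 13 libraries, with p-values adjusted over 17403 genes. log2 CPM used a prior count of 2. No pair of libraries agreed within sampling noise. DESeq2 1.42.0 and limma 3.58.1 (voom with quality weights) were alternatives, as were other scalings and filters, subsets, covariates and leaving out each library. The method was tested on simulated data, drawn with the spread that edgeR fitted and with 200 of 17403 genes changed. There, edgeR recovered 20%, 8% and 24% of 2-fold changes against AAV-miR ctrl, Non-injected and both control groups. For 4-fold changes it recovered 60%, 50% and 70%, so changes of the size fitted for the factors could be missed. The members and lists were chosen with earlier results of these data known. For each member the 3 genes most alike were named, and from each list up to 2 genes with the smallest p; Ldb1, Ldb2 and Zeb2 were added after their values were seen. Of the listed genes, 2 are not reported here and were left out of the list counts and sums. Libraries are separate mice, per the labels' protocols.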

Additional observations from a re-analysis of the deposited data

Results flagged for a closer look

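Of 33 sets of values (levels and ratios by group), 2 held a library set apart from the rest by the Dixon criterion, where chance would give 1.65 at 1 in 20. Mnx1 in AAV-miR SOD1 replicate 3 had a log2 CPM of 1.82, whereas the other 3 AAV-miR SOD1 libraries lay between 2.78 and 2.84. The log2 ratio of Mnx1 to the cholinergic level in AAV-miR ctrl replicate 6 was -4.09, whereas the other 4 AAV-miR ctrl libraries lay between -4.56 and -4.45.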

How the results depend on the processing

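The 20 fold changes of the 5 factors were recomputed under 29 alternatives, 5 of them chosen after seeing the data (number class as a covariate, libraries numbered 5 or 6, the exchange of the header-contradicted libraries within libraries numbered 1 to 4, leaving out AAV-miR ctrl 3 and 4, and leaving out AAV-miR ctrl 3 and Non-injected 3). Of 556 values, 506 kept direction and side of the threshold, 6 moved past it and 44 turned in sign; the cause was not tested. Without AAV-miR ctrl replicate 1, edgeR called 1694 genes against both control groups, Mnx1 (-1.22, adjusted p = 0.048) and Isl1 (-1.59, adjusted p = 0.0303) among them. DESeq2 against Non-injected called 1025 of 17403 genes, Mnx1 (-1.35, adjusted p = 0.0334) and Isl1 (-1.65, adjusted p = 0.0379) among them. The DESeq2 values of the report are the remaining passes. In the simulated counts, 44 of 186 DESeq2 calls against Non-injected were false, a share that cannot be carried over to the real libraries. Leaving out each library in turn, adjusted p against both control groups spanned 0.048 to 0.376 for Mnx1 and 0.0303 to 0.377 for Isl1.

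Genes called by edgeR at an adjusted p under 0.05 numbered 0 in each comparison, while an unadjusted p under 0.05 was met by 2529 genes for AAV-miR ctrl as the reference, 3635 for Non-injected, 629 between controls and 3870 for both control groups. DESeq2 called 180, 1025, 2 and 1521 genes in that order, and limma-voom 1461 against both and 0 in the others. None of the identity factors was among the 1461. Without the count filter edgeR called 1 gene against both. The header exchange within libraries numbered 1 to 4 gave 1 gene against Non-injected and 1 between controls. Leaving out each library in turn gave 0 to 1694 genes against both, with 1694 without AAV-miR ctrl replicate 1, 121 without AAV-miR SOD1 replicate 3 and 1 without AAV-miR SOD1 replicate 4.

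Values that turned positive with the cholinergic covariate were, against AAV-miR ctrl, Mnx1 0.26, Isl1 0.006, Isl2 0.85, Lhx3 1.94 and Lhx4 0.35, against Non-injected Isl2 0.90, Lhx3 1.71 and Lhx4 0.22, between controls Isl2 0.054, and against both Mnx1 0.11, Isl2 0.87, Lhx3 1.83 and Lhx4 0.28. Lhx3 against AAV-miR ctrl was also 1.02 in libraries numbered 1 to 4, 0.21 with number class as a covariate and -0.74 to 0.26 leaving out each library, above 0 without AAV-miR ctrl replicate 6. Against Non-injected, the header exchange within libraries numbered 1 to 4 gave Isl2 0.11 and Lhx3 0.64. Between controls, the header exchange gave Mnx1 0.12, Isl1 0.27, Isl2 0.54, Lhx3 1.00 and Lhx4 0.50, and within libraries numbered 1 to 4 it gave 0.72, 0.26, 0.85, 1.42 and 0.76. Libraries numbered 5 or 6 gave Isl1 0.34, Isl2 0.53, Lhx3 0.89 and Lhx4 0.21 between controls. Without AAV-miR ctrl 3 and Non-injected 3 these were Isl2 0.29, Lhx3 0.42 and Lhx4 0.14, and without AAV-miR ctrl 3 and 4 Isl2 was 0.21. Leaving out each library in turn, the values between controls were -0.59 to 0.11 for Isl2, -1.20 to 0.22 for Lhx3 and -0.53 to 0.031 for Lhx4; the last 2 were above 0 without Non-injected replicate 3.

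The numbers of the libraries gave no clear sign of pairing, although 8 pairs are too few to settle it. Deviations of same-numbered libraries correlated at -0.19 to 0.24 over these 8 pairs, 3 of them over 0.1. In 5 of 16 cases a library correlated best with its own number. With the replicate number as a block, edgeR called 0 genes, and the values against both control groups were -0.66 for Mnx1, -0.97 for Isl1, -0.25 for Isl2, 0.29 for Lhx3 and -0.65 for Lhx4; Lhx3 against AAV-miR ctrl was 0.58. Lhx3 did not reach the filter of 10 counts in 8 libraries and has no value there. Lhx3 had 4 to 59 counts per library, the fewest of the 5 factors.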
